A study of Mus musculus with 4 samples.

Results

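Collagens, laminins and the glycoproteins and enzymes that build extracellular matrix were followed in Myc-CaP cells, a mouse line of prostate cancer with the Hi-Myc transgene in the FVB strain. The genes were chosen by symbol among the protein-coding genes of the deposited count table. The symbols cover collagen chains, laminin chains, fibronectin, fibulins, fibrillins, thrombospondins, latent TGF-beta binding proteins, proteoglycans, lysyl oxidases and the lysyl and prolyl hydroxylases. Of 52636 genes, 103 matched, and 51 of these reached 1 CPM, a count scaled to the size of its library, in at least 1 library, as did 12351 genes in all.

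Extracellular matrix is the mesh of secreted proteins to which cells attach. Collagen chains fold as trimers in the endoplasmic reticulum after hydroxylation of prolines and lysines, and lysyl oxidases crosslink the secreted fibres. In epithelia, laminin trimers and type IV collagen form the basement membrane, while fibronectin forms fibrils that cells assemble through integrins. Focal adhesion kinase (FAK, gene Ptk2) is a cytoplasmic kinase recruited to the sites where integrins hold this matrix.

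The study treated a line carrying hairpins against FAK (shFAK) and a line carrying a negative control hairpin (shNC) with 10 µM norepinephrine or with vehicle for 24 h. The 4 groups were shFAK with norepinephrine, shNC with norepinephrine, shFAK with vehicle and shNC with vehicle, with 1 library each and no replicates. Both lines carry the Hi-Myc background, both were stably transfected, and both grew in medium with fetal bovine serum. The labels name several hairpins against FAK and do not say whether a line is 1 clone, so loss of FAK cannot be told apart from other ways in which the lines may differ.

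Total counts ran from 23410486 to 29948640 per library. Ptk2 had 1248 counts in shFAK and 3158 in shNC under norepinephrine, and 1294 in shFAK and 3547 in shNC under vehicle (log2 ratios of -1.19 and -1.29). The shFAK norepinephrine library stood apart: it had counts for 23121 genes at the lowest total, against 20442 to 21678 genes in the other libraries, and 119 genes with at least 8 counts there and at most 2 in each other library, against 4 to 9 such genes elsewhere. None of the 103 matrix symbols was among those 119, but rare ones still ran higher in this library. Those below 1 CPM in every library summed to 282 counts in it, against 157 to 202 in the others. Loxl1 had 41 counts in it, against 1 to 5 in the others. Each result below that uses this library is therefore set beside the vehicle pair or the shNC pair, which do not use it. Of the luminal epithelial markers, Cdh1 had at most 7 counts, Epcam at most 15 and Krt18 at most 4 in any library, while Krt8 had 48 in shFAK and 165 in shNC under norepinephrine, and 50 in shFAK and 153 in shNC under vehicle. Apart from Krt8, these markers of the labelled epithelial origin were nearly absent. The endothelial markers summed to at most 0.214 CPM. Of the leukocyte markers, Cd3e had 0 counts and Ptprc at most 1, while Csf1r had 2 to 7 and Cd68 24 to 36 counts per library.

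Ratios between libraries are log2 ratios of CPM on TMM-scaled library sizes with a prior count of 2, and the interval after each is the exact 99% interval of the counts, which covers counting error only. A gene was called when the ratio was at least 1.5-fold and the interval left out 0. Where a pair of ratios is given for shFAK over shNC, the norepinephrine pair comes before the vehicle pair, and for norepinephrine over vehicle the shFAK ratio comes before that of shNC. These values compare libraries, not conditions. Levels between genes are given as TPM, which divides counts by gene length before scaling each library to the same sum.

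Fibronectin was the most abundant matrix transcript, laminin, collagen IV and type V collagen chains were present, and the interstitial collagens were almost absent. Fn1, fibronectin (chr1:71585520-71653200 in the deposited table, mm10), had 826 TPM in shFAK and 405 in shNC under norepinephrine, and 881 in shFAK and 605 in shNC under vehicle. It held 31.0% to 37.8% of the counts of the 51 genes. The next highest mean levels were those of Plod3, Spp1, Sparc and Efemp1, which ran from 136 to 344 TPM over the libraries. Plod3 hydroxylates and glycosylates collagen lysines, Spp1 is the integrin-binding phosphoprotein osteopontin, Sparc is a collagen-binding secreted glycoprotein and Efemp1 is fibulin-3.

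**Figure D1:**
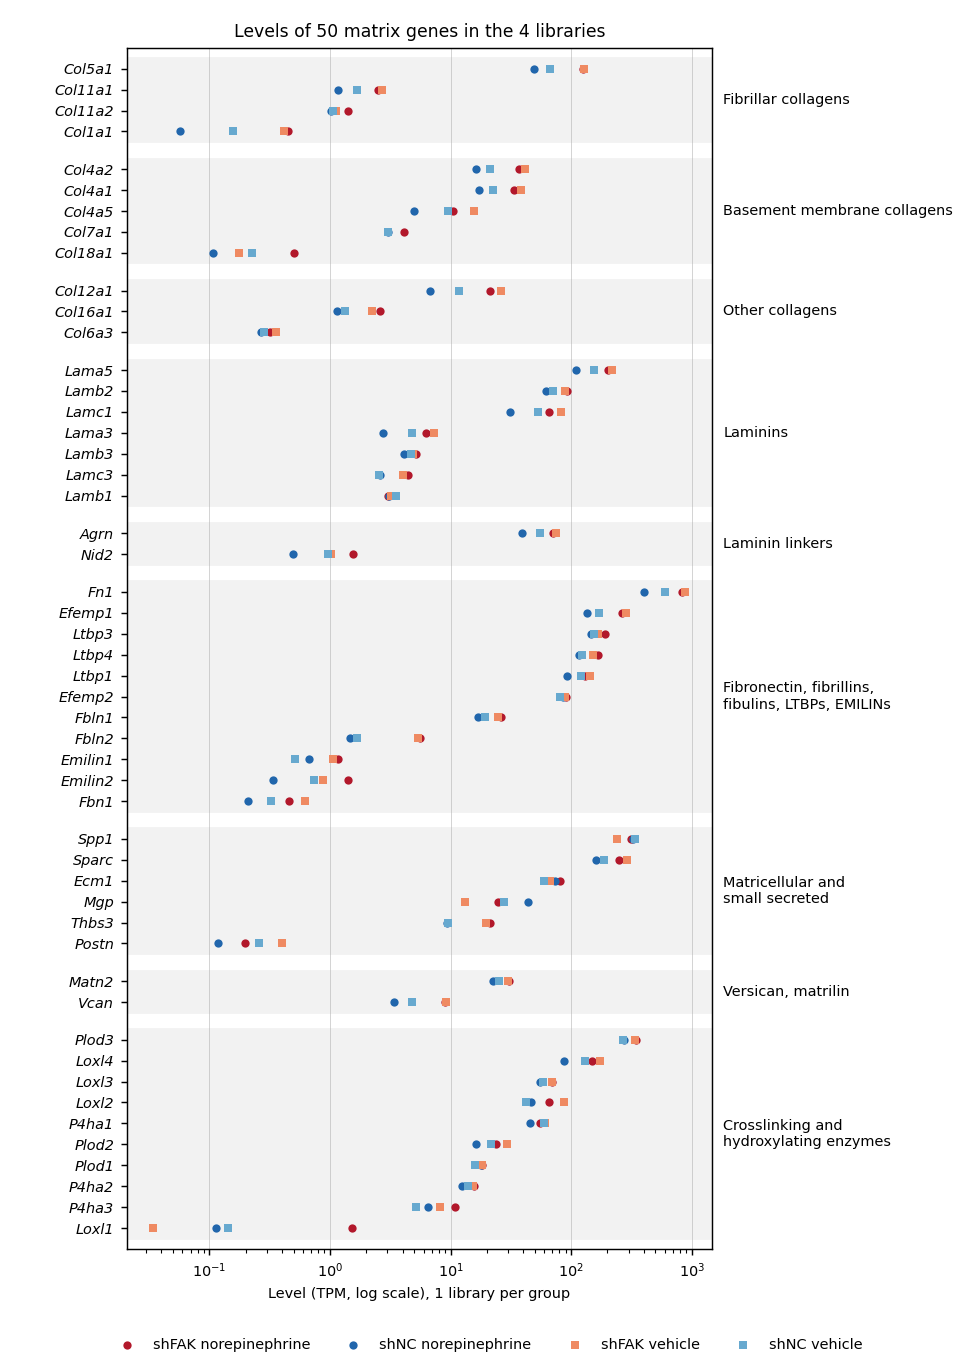
Levels (TPM, log scale) of 50 of the 51 matrix genes, grouped by role, with 1 point per library and no error because each group has 1 library. Fn1 lies at 405 to 881 TPM, and Col5a1, Lama5, Spp1, Sparc, Efemp1, Plod3 and Loxl4 are the other high members of their groups.

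The interstitial collagens of connective tissue were at or near 0. Col3a1, Col5a2, Dcn, Lum and Col28a1 had 0 counts in every library, where a count of 0 allows up to 3 counts, or 0.128 CPM in the shallowest library. Col1a2, the partner chain of Col1a1 in type I collagen, had 1 count in shNC vehicle and 0 elsewhere. Col1a1 itself had 24 counts in shFAK and 4 in shNC under norepinephrine, and 24 in shFAK and 11 in shNC under vehicle. Col5a2 encodes the usual partner chain of Col5a1, which by contrast reached 127 TPM. Lox, the founding lysyl oxidase, had 1 count in shNC norepinephrine and 0 elsewhere.

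Of the 52 symbols below 1 CPM, 18 had at most 2 counts in every library and none had more than 23. Hspg2, the basement membrane proteoglycan perlecan, had 20 counts in shFAK and 7 in shNC under norepinephrine, and 1 in shFAK and 9 in shNC under vehicle. Nid1, a linker of laminin and collagen IV, had 23 counts in shFAK and 8 in shNC under norepinephrine, and 6 in shFAK and 5 in shNC under vehicle. Tnc had at most 8 counts, Thbs1 at most 9 and Bgn at most 1. Col1a1 and Postn lay just inside the cutoff, with highest values of 1.03 and 1.19 CPM, and Nid1 and Col8a2 just outside it, at 0.98 and 0.94. Of the 51 genes, 4 (Col18a1, Col1a1, Loxl1 and Postn) passed in 1 library only and 4 more in 3 libraries, so a difference between libraries is built into how these entered the set. The 40 genes that averaged 5 CPM or more are therefore given separately.

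More matrix genes were called higher than lower in shFAK against shNC, both under norepinephrine and under vehicle. Under norepinephrine, 21 of 51 were called higher, against 8.1% of all 12351 genes, and 1 was called lower, against 3.15%. Under vehicle, 13 were called higher, against 3.69%, and 2 lower, against 1.6%. In both pairs, which share no library, 10 were called higher, against 2.44%, and 1 lower, against 0.834%. The 10 were Fbln2, Col12a1, Vcan, Col5a1, Thbs3, Col4a2, Col4a1, Col4a5, Efemp1 and Col16a1, and the lower gene was Mgp.

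The median log2 ratio of the 51 genes was 0.50 under norepinephrine, against 0.02 over all genes, with 44 of 51 above 0. Under vehicle it was 0.30, against 0.00, with 39 of 51 above 0. Among the 40 genes that averaged 5 CPM or more, 15 were called higher under norepinephrine, against 6.39% of the 9862 genes at that level, and 10 under vehicle, against 2.51%. Called lower were 1 under norepinephrine (Mgp), against 2.52%, and 2 under vehicle (Mgp and Spp1), against 1.07%. In both pairs 9 of the 40 were called higher, against 2.01%, and 1 lower, against 0.7%. Their medians were 0.37 and 0.31, against 0.00 and -0.01 over the 9862. Across these 40, the ratios of both pairs correlated with Pearson's r of 0.92 and Spearman's rho of 0.90, against 0.81 and 0.81 over the 9862. Over all 51 they were 0.33 and 0.59, against 0.60 and 0.70 over all 12351 genes. These values are a description over genes that are not independent of each other.

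The additive model of hairpin and treatment, fitted to all genes with the quasi-likelihood test of edgeR, called 28 of 51 higher in shFAK, against 19.5% of all genes, and 2 lower (Mgp and Spp1), against 16.2%, at an adjusted p under 0.05. Col1a1 and Loxl1, among the 28, reached 1 CPM only in the shFAK norepinephrine library, so their higher values there are built into the selection. With 1 residual degree of freedom, the model pools its spread over genes, and the spread between cultures was not measured. The DESeq2 Wald test gave 42 of the 51 an adjusted p and called 17 of these higher, against 8.54% of the 10674 genes with one, and 2 lower, against 7.12%.

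**Figure D2:**
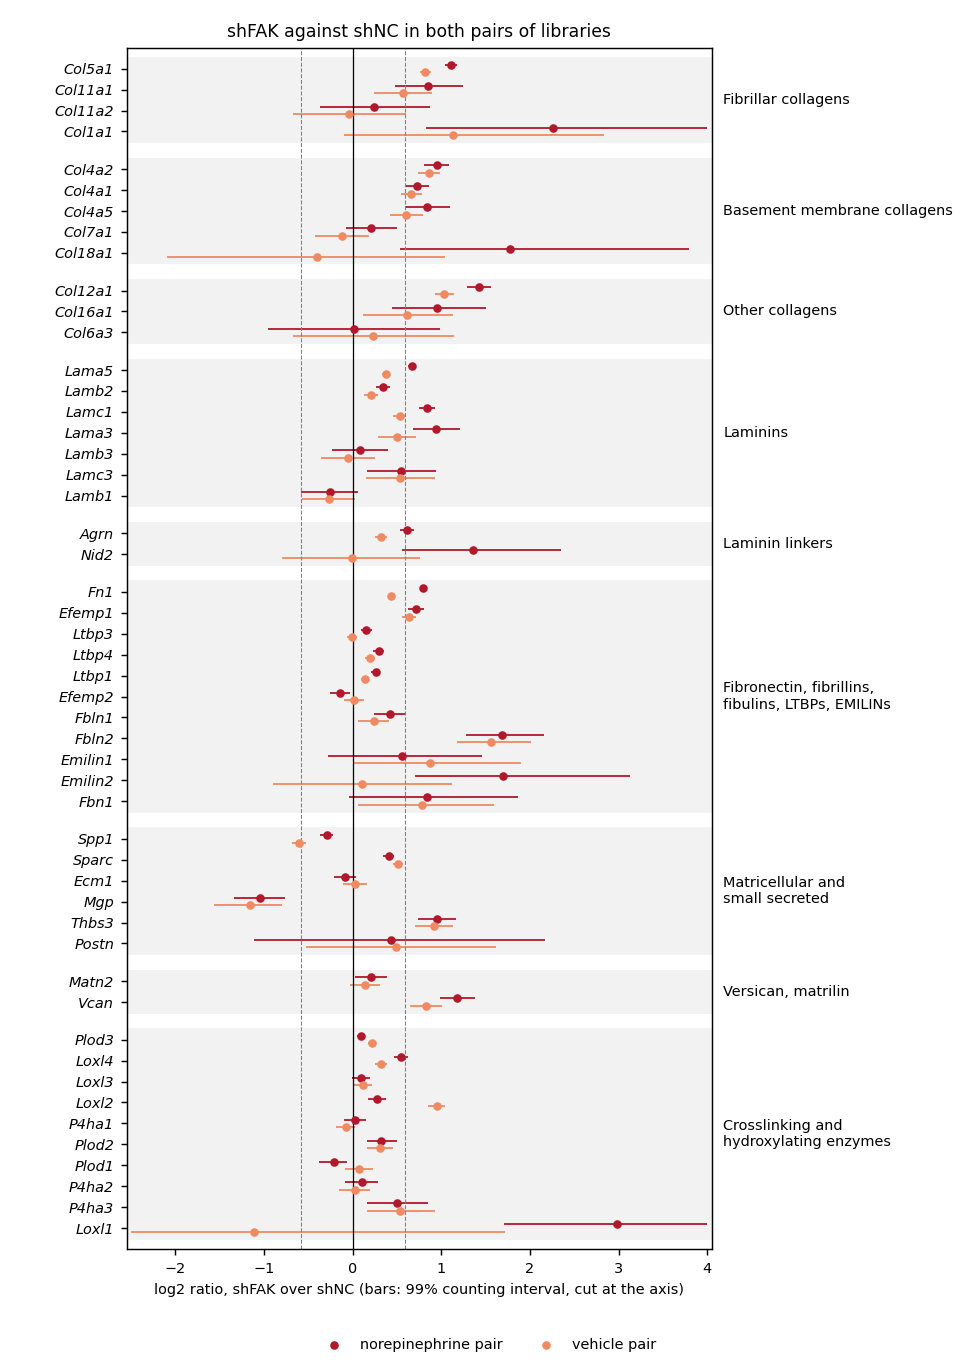
Log2 ratios of shFAK over shNC for 50 of the 51 genes in the norepinephrine pair (dark points) and the vehicle pair (light points), with exact 99% counting intervals as bars, cut at the axis, and dashed lines at 1.5-fold. Fbln2 (1.69 and 1.56) and Col12a1 (1.42 and 1.03) lie farthest right among the genes called in both pairs, and Mgp (-1.04 and -1.16) farthest left.

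Longer genes had higher shFAK ratios across the whole table, and matrix genes are long. Their median gene length was 6463 bases against 3981 over all kept genes, and 41 of 51 were longer than that median. Among the 1235 longest genes, in the last of 10 length bins, the median ratio was 0.34 under norepinephrine and 0.16 under vehicle. With a spline trend on length and transcript GC content taken off, the medians of the 51 genes were 0.39 and 0.24, against 0.00 and -0.01 over all genes. The genes called higher were then 16 under norepinephrine, against 5.84% of all genes, and 9 under vehicle, against 3.58%. Mgp was the 1 called lower under norepinephrine, against 1.74%, under vehicle, against 1.26%, and in both, against 0.534%. In both pairs 7 of the 10 genes remained called higher, against 2.18% of all genes, while Col16a1, Col4a1 and Col4a5 did not. Agrn, Col11a1, Fn1 and Lama5 also lost their calls under norepinephrine, and Emilin1, Fbn1 and Spp1 theirs under vehicle. What sets the trend was not tested.

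**Figure D3:**
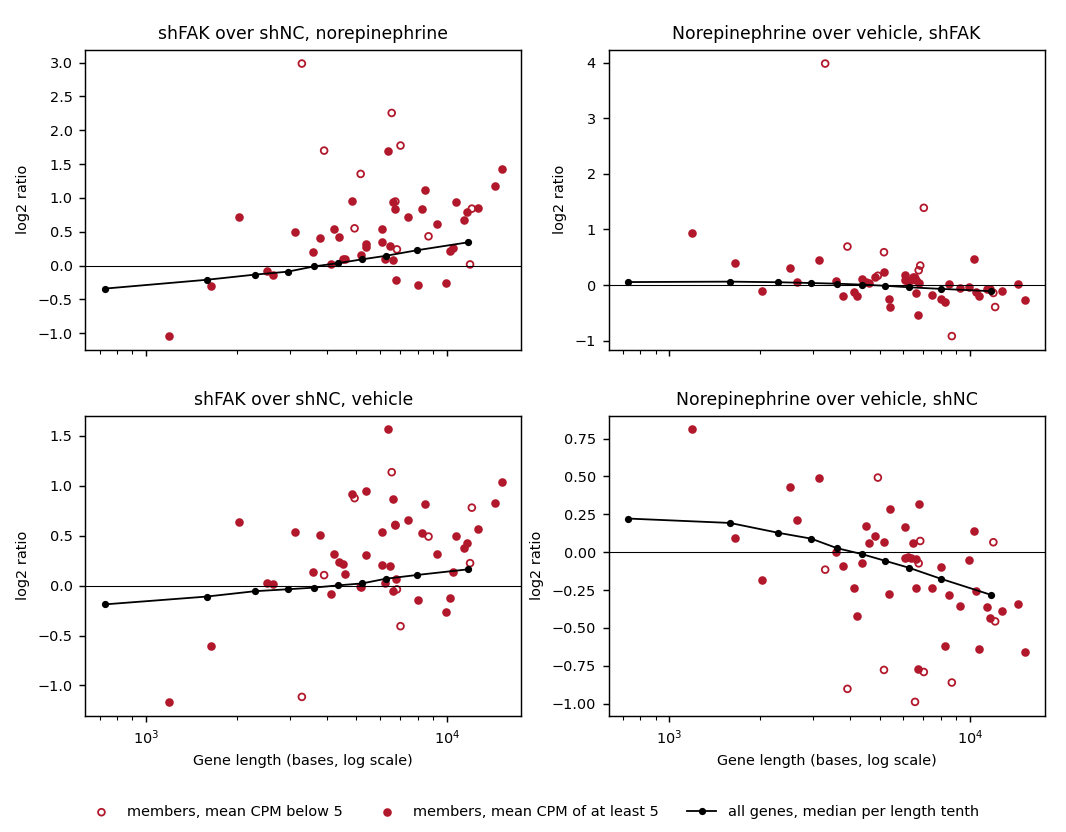
Log2 ratios of the 51 genes against gene length (bases, log scale) in the 4 pairs of libraries, with filled points for an average of 5 CPM or more, open points below that, and a black line for the median of all genes in each of 10 length bins. The line climbs to 0.34 and 0.16 in the hairpin pairs (left panels) and descends to -0.11 in shFAK and -0.28 in shNC in the treatment pairs (right panels).

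Among the basement membrane collagens, Col4a1 and Col4a2 were higher in shFAK together. They encode the chains of the common collagen IV trimer and lie head to head on chromosome 8, with deposited gene spans (mm10) that overlap by 22 bases. Their promoter windows from RefSeq (build GRCm38.p6, 250 bases before to 50 after the start) are shown because these neighbours share sequence. The Col4a1 window is chr8:11312777-11313076 on the minus strand, and the Col4a2 window is chr8:11312555-11312854 on the plus strand. Capitals mark the 78 bases common to both windows, read on opposite strands.
Col4a1: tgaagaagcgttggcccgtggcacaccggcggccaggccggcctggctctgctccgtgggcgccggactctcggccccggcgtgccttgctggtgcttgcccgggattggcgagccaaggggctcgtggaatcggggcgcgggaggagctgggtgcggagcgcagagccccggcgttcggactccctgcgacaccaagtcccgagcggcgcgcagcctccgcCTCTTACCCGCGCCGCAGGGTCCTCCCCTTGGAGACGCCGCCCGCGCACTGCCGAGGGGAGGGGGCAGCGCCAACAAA
Col4a2: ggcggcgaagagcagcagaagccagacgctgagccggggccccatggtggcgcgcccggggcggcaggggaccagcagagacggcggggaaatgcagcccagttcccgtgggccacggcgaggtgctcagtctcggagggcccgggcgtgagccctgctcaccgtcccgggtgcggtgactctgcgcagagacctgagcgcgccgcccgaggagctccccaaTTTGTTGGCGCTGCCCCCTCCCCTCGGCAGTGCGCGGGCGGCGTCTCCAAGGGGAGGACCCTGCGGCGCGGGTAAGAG

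Col4a2 had 82.9 CPM in shFAK and 43.0 in shNC under norepinephrine, and 92.0 in shFAK and 50.6 in shNC under vehicle (log2 0.95, interval 0.81 to 1.09, and 0.86, interval 0.74 to 0.99). Col4a1 had 84.2 CPM in shFAK and 51.0 in shNC under norepinephrine, and 95.1 in shFAK and 60.1 in shNC under vehicle (0.72, interval 0.59 to 0.85, and 0.66, interval 0.55 to 0.78). For each chain both shFAK libraries lay above both shNC libraries, with no overlap. The TPM ratio of Col4a1 to Col4a2 was 0.900 in shFAK and 1.05 in shNC under norepinephrine, and 0.917 in shFAK and 1.05 in shNC under vehicle. The kit does not mark strand, so reads in the overlap cannot be told apart.

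Col4a5, the X-linked collagen IV chain, had 24.0 CPM in shFAK and 13.4 in shNC under norepinephrine, and 34.9 in shFAK and 22.9 in shNC under vehicle (0.84, interval 0.59 to 1.1, and 0.61, interval 0.42 to 0.80). Its shFAK norepinephrine library was only just above shNC vehicle. Col7a1, the collagen of anchoring fibrils, was not called in either pair (0.21 and -0.12). Col18a1, the source of endostatin, was called under norepinephrine alone, on 29 counts in shFAK and 8 in shNC.

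Col5a1, the type V chain that starts and limits collagen fibrils, was the most abundant collagen by TPM. It had 361 CPM in shFAK and 167 in shNC under norepinephrine, and 358 in shFAK and 203 in shNC under vehicle (1.11, interval 1.04 to 1.18, and 0.82, interval 0.76 to 0.88). The shFAK libraries were nearly equal and stood apart from both shNC libraries. The annotated genes 2810430I11Rik and Gm13372 match part of it on the other strand, so its counts are uncertain. Col11a1, a related fibrillar chain, had 10.7 CPM in shFAK and 5.93 in shNC under norepinephrine, and 11.5 in shFAK and 7.78 in shNC under vehicle. It was called in the norepinephrine pair only (0.84, interval 0.47 to 1.24, and 0.56), and not once the trend on length and GC was removed (0.54 under norepinephrine). Col11a2, its partner chain, had 68 to 79 counts per library and was not called (0.24 and -0.04).

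Col12a1 and Col16a1 belong to the collagens that decorate fibrils rather than form them. Col12a1 (chr9:79598991-79718831) had 110 CPM in shFAK and 40.8 in shNC under norepinephrine, and 132 in shFAK and 64.4 in shNC under vehicle (1.42, interval 1.29 to 1.56, and 1.03, interval 0.93 to 1.14). It had the highest shFAK ratio among collagens called in both pairs, 2.68-fold and 2.04-fold, and the groups did not overlap. It is also the longest of the 51 genes, and after the length and GC trend was taken off its ratios were 1.08 and 0.86. Col16a1 had 6.0 CPM in shFAK and 3.08 in shNC under norepinephrine, and 4.98 in shFAK and 3.25 in shNC under vehicle (0.95, interval 0.44 to 1.5, and 0.61, interval 0.11 to 1.13). Col6a3, the only type VI chain above the cutoff, had 31 to 38 counts per library and was not called (0.02 and 0.22), while Col6a1 and Col6a2 had at most 8 counts.

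Laminins are trimers of an alpha, a beta and a gamma chain, and Lama5, Lamb2 and Lamc1 stood above the other chains described here. Lama5 had 203 TPM in shFAK and 109 in shNC under norepinephrine, and 217 in shFAK and 155 in shNC under vehicle. Lamb2 had 92.8 TPM in shFAK and 62.3 in shNC under norepinephrine, and 88.3 in shFAK and 70.6 in shNC under vehicle. Lamc1 had 65.7 TPM in shFAK and 31.2 in shNC under norepinephrine, and 82.7 in shFAK and 52.9 in shNC under vehicle. For each of these chains both shFAK libraries lay above both shNC libraries. Lama3, Lamb1, Lamb3 and Lamc3 stayed between 2.56 and 7.31 TPM. Lama3 and Lamb3 are laminin chains of epidermal hemidesmosomes.

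**Figure D4:**
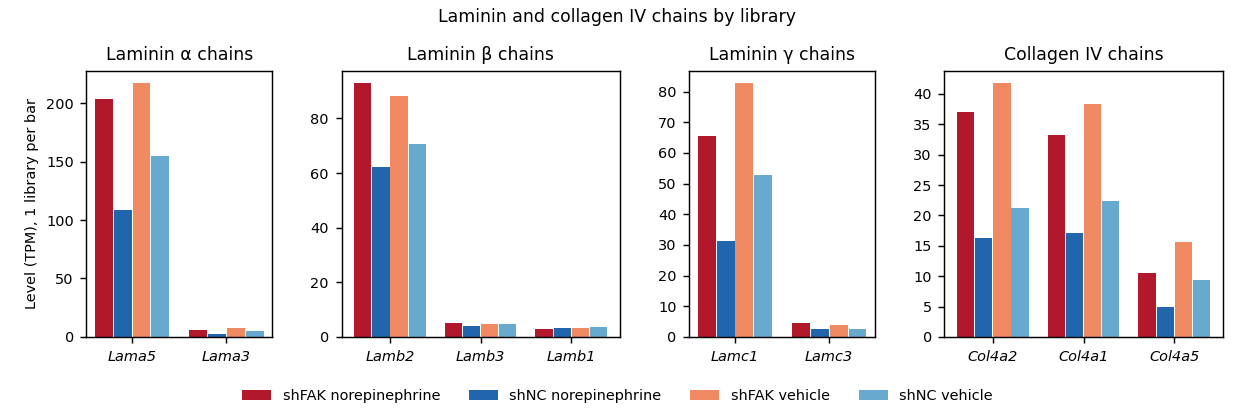
Levels (TPM) of laminin alpha, beta and gamma chains and of collagen IV chains, with 1 bar per library and no error. Lama5, Lamb2 and Lamc1 exceed the other chains drawn of their kind in every library, and the shFAK bars exceed the shNC bar of the same treatment for these chains and for collagen IV.

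The laminin chains differed in their ratios. Lamc1 was called higher in shFAK under norepinephrine (0.84, interval 0.75 to 0.93) and short of 1.5-fold under vehicle (0.53, interval 0.46 to 0.60). Lama5 was at 0.67 and 0.37 and Lama3 at 0.94 and 0.50, again called under norepinephrine only. With the trend taken off, Lama5 was at 0.39 under norepinephrine and not called, and Lama3 at 0.68 and still called. Lamb2 was at 0.34 and 0.21, while Lamb1 (-0.26 and -0.27) was below 0 in both pairs and not called. Lamc3 (0.54 and 0.53) and Lamb3 (0.08 and -0.06) were not called either. The TPM ratio of Lamb2 to Lamb1 was 30.4 in shFAK and 20.0 in shNC under norepinephrine, and 27.6 in shFAK and 19.8 in shNC under vehicle. Of the laminin linkers, Agrn, agrin, had 221 CPM in shFAK and 144 in shNC under norepinephrine, and 230 in shFAK and 184 in shNC under vehicle (0.61, interval 0.53 to 0.69, and 0.32), and its ratio under norepinephrine was 0.39 and not called with the trend taken off.

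Among the glycoproteins, Fbln2 had the highest shFAK ratios of the genes called in both pairs. Fibulin-2 (chr6:91212455-91272540) binds fibronectin and laminins in basement membranes and elastic fibres. It had 12.1 CPM in shFAK and 3.72 in shNC under norepinephrine, and 11.4 in shFAK and 3.82 in shNC under vehicle (1.69, interval 1.27 to 2.16, and 1.56, interval 1.17 to 2.01). The ratios were 3.22-fold and 2.95-fold, the libraries of each line were nearly equal, and the lines did not overlap. The counts behind them were 291 in shFAK and 99 in shNC under norepinephrine, and 303 in shFAK and 113 in shNC under vehicle. Its promoter window, chr6:91212514-91212813 on the plus strand, is shown because Fbln2 led the called genes, and capitals mark its 2 GC boxes (GGGCGG, either strand).
Fbln2: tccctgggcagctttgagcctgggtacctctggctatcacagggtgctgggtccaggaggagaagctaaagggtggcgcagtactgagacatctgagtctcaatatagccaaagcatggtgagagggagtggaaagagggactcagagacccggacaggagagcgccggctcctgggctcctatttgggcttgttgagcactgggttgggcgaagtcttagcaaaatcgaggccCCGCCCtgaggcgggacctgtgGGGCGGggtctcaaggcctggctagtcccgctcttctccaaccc

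Promoter windows were found for 37 of the 51 genes, 49 windows in all, and for 9 of the 10 genes higher in both pairs. GGGCGG was in 9 of those 9 windows and in 65.3% of the 49, against 35.7% of all 32851 windows. All windows were counted whatever the level of their gene and were not matched for GC content, so the sets are unlike. The stretch common to the Col4a1 and Col4a2 windows holds GGGCGG, so their matches are not independent. CCAAT was in 6 of the 9 and in 32.7% of the 49, against 37.4%. TATAAA was in 0 of the 9 and in 12.2% of the 49, against 13.6%. TGANTCA, the AP-1 sequence, was in the Efemp1 window only and in 6.12% of the 49, against 7.81%. Both strands were searched, and these matches describe letters in the windows, not binding.

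Fn1 had 78434 counts in shFAK and 50151 in shNC under norepinephrine, and 90765 in shFAK and 75384 in shNC under vehicle. Its ratio was 0.80 (interval 0.77 to 0.82) and 0.43 (interval 0.41 to 0.44), called under norepinephrine and short of 1.5-fold under vehicle. After the length and GC trend was taken off, these were 0.52 and 0.31, and neither was called. Both shFAK libraries stayed above both shNC libraries in CPM. Part of its sequence also matches the genes Apol7d and Qsox1, so its counts are uncertain.

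Efemp1 had 181 CPM in shFAK and 110 in shNC under norepinephrine, and 195 in shFAK and 125 in shNC under vehicle (0.72, interval 0.63 to 0.81, and 0.64, interval 0.56 to 0.72). At 2037 bases it is among the shorter members, and with the trend taken off its ratios were 0.87 and 0.69. The latent TGF-beta binding proteins Ltbp1, Ltbp3 and Ltbp4, which hold latent TGF-beta in the matrix, were not called, with ratios from -0.01 to 0.29. Fbln1 (0.42 and 0.24) and Efemp2 (-0.14 and 0.01) were not called either. Fbn1 and Emilin1, with 27 to 66 counts per library, were called under vehicle, though not with the trend taken off, and Emilin2 under norepinephrine.

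Vcan, versican, a large proteoglycan that binds hyaluronan, had 44.2 CPM in shFAK and 19.5 in shNC under norepinephrine, and 43.9 in shFAK and 24.8 in shNC under vehicle (1.18, interval 0.98 to 1.38, and 0.82, interval 0.65 to 1.00). Thbs3, a pentameric thrombospondin, had 34.6 CPM in shFAK and 17.9 in shNC under norepinephrine, and 31.4 in shFAK and 16.6 in shNC under vehicle (0.95, interval 0.74 to 1.17, and 0.92, interval 0.71 to 1.13). In both genes the shFAK libraries were alike and lay above the shNC libraries. Thbs3 lies across Mtx1 on the other strand, and the reads of both genes cannot be separated where they overlap. Matn2, matrilin-2, was at 0.21 and 0.14 and Sparc at 0.40 and 0.51, and neither was called.

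Mgp went the other way. Matrix Gla protein, a small secreted inhibitor of calcification (chr6:136872435-136875823), had 240 counts in shFAK and 551 in shNC under norepinephrine, and 138 in shFAK and 348 in shNC under vehicle. In CPM these were 10.0 in shFAK and 20.7 in shNC under norepinephrine, and 5.21 in shFAK and 11.8 in shNC under vehicle (-1.04, interval -1.34 to -0.76, and -1.16, interval -1.56 to -0.80). Both shFAK libraries lay below both shNC libraries. Mgp is the shortest of the 51 genes at 1187 bases, and after the length and GC trend was taken off it was still called, at -0.79 and -1.05. Spp1 had 174 CPM in shFAK and 214 in shNC under norepinephrine, and 132 in shFAK and 201 in shNC under vehicle. It was called lower under vehicle (-0.60, interval -0.68 to -0.52) and not under norepinephrine (-0.30), and with the trend taken off in neither (-0.53 under vehicle).

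The crosslinking and hydroxylating enzymes had a median log2 ratio of 0.18 under norepinephrine and 0.17 under vehicle over 10 measured members, and none was called in both pairs. The medians of the 4 measured fibrillar collagens were 0.98 and 0.69, and those of the 5 measured basement membrane collagens 0.84 and 0.61. Col1a1 and Col18a1 among these collagens, and Loxl1 among the enzymes, reached 1 CPM only in the shFAK norepinephrine library. Their higher values there are built into the selection, and so into these medians. Plod3 had 526 CPM in shFAK and 494 in shNC under norepinephrine, and 509 in shFAK and 438 in shNC under vehicle (0.09 and 0.22). Loxl4, the most abundant lysyl oxidase by TPM, had 214 CPM in shFAK and 147 in shNC under norepinephrine, and 245 in shFAK and 197 in shNC under vehicle (0.54, interval 0.47 to 0.62, and 0.31). The lysyl hydroxylases Plod1 (-0.22 and 0.07) and Plod2 (0.32 and 0.30) and the lysyl oxidase Loxl3 (0.10 and 0.12) were not called. The prolyl hydroxylases P4ha1 (0.03 and -0.08) and P4ha2 (0.10 and 0.02) were close to 0, and P4ha3 was at 0.50 and 0.53. Whether these medians differ from those of the collagens was not tested.

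Summed over the 51 genes, matrix transcripts came to 8779 CPM in shFAK and 6069 in shNC under norepinephrine, and to 9065 in shFAK and 7086 in shNC under vehicle, ratios of 1.45 and 1.28. Without Fn1 the ratios were 1.32 and 1.24. The sum of the fibrillar collagens was 2.14 and 1.74 times as high in shFAK, that of the laminins 1.51 and 1.28 times, and that of the enzymes 1.13 and 1.21 times. The fibrillar sum was nearly all Col5a1, whose own ratios were 2.16-fold and 1.76-fold. Under norepinephrine Col5a1 held 361 of 376 CPM in shFAK and 167 of 176 in shNC. Under vehicle it held 358 of 373 in shFAK and 203 of 214 in shNC.

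Markers of fibroblasts and smooth muscle were also higher in shFAK as a sum. The 7 listed markers came to 30.7 CPM of the unscaled library size in shFAK and 20.7 in shNC under norepinephrine, and to 37.6 in shFAK and 24.3 in shNC under vehicle. Only 2 of the 7 reached 1 CPM, Pdgfra and Acta2. Pdgfra had 299 counts in shFAK and 198 in shNC under norepinephrine, and 326 in shFAK and 276 in shNC under vehicle. Acta2 had 411 counts in shFAK and 369 in shNC under norepinephrine, and 648 in shFAK and 452 in shNC under vehicle. Fap was at 0 in every library, Thy1 had 2 counts in shFAK norepinephrine and 0 elsewhere, and Pdgfrb, Des and Myh11 had at most 3 counts. The part of these markers in the matrix ratios was not tested, and in bulk RNA a change in the share of a cell type and a change of RNA per cell cannot be told apart.

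Genes that receive, fold or signal through matrix were read from lists beside the 51. Of 18 measured matrix receptors, 4 were called higher in shFAK in both pairs, against 2.44% of all genes, and 0 lower, against 0.834%. Itgb3, an integrin beta chain for fibronectin and vitronectin, had 117 CPM in shFAK and 40.9 in shNC under norepinephrine, and 127 in shFAK and 49.8 in shNC under vehicle (1.52, interval 1.39 to 1.66, and 1.35, interval 1.23 to 1.47). Itga7, a laminin receptor chain, was at 0.83 and 0.76 and Dag1, dystroglycan, which binds laminin and agrin, at 0.78 and 0.61. The fourth was the integrin alpha chain Itgav, at 0.69 and 0.60. Without the trend on length and GC, Itgav was at 0.42 and 0.47, short of 1.5-fold in both pairs. Dag1 was then at 0.65 and 0.55, short of it under vehicle. Itgb3 (1.42 and 1.29) and Itga7 (0.64 and 0.69) stayed above 1.5-fold in both. Itga3, the most abundant of the 18 receptors by CPM, was below 0 in both pairs (-0.42 and -0.45) and not called. Ratios above 0 were found for 13 of the 18 under norepinephrine and 16 under vehicle. Of 15 measured genes for collagen folding, processing and secretion, 0 were called in both pairs, against 2.44% of all genes higher and 0.834% lower. Their medians were 0.14 and 0.16. Of 14 measured TGF-beta ligands and receptors, 1 was called higher in both, against 2.44% of all genes. It was the co-receptor Tgfbr3 (0.90, interval 0.72 to 1.09, and 0.76, interval 0.60 to 0.93).

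Fewer matrix genes were called between norepinephrine and vehicle than between shFAK and shNC. In shFAK, 3 of 51 (5.88%) were called higher (Mgp, Loxl1 and Col18a1), against 1.27% of all genes, and 0 lower, against 0.429%. Loxl1 and Col18a1 reached 1 CPM only in the shFAK norepinephrine library, so their higher values there are built into the selection. Among the 40 genes that averaged 5 CPM or more, only Mgp was called higher in shFAK, against 0.335% of genes at that level, and 0 were called lower, against 0.142%. In shNC, 1 (1.96%) was called higher (Mgp), against 1.56%, and 4 (7.84%) lower (Col4a5, Col12a1, Lama3 and Lamc1), against 2.15%. In both lines, whose pairs share no library, 1 was called higher, against 0.154%, and 0 lower, against 0.0891%. Mgp was that gene. The medians were 0.04 in shFAK and -0.09 in shNC, each against -0.00 over all genes, with 29 and 18 of 51 above 0. Once the trend on length and GC was removed, the shFAK median was -0.01, with 24 of 51 above 0. Among the 40 genes in shNC, Mgp was again the 1 called higher, against 0.913%, and the same 4 were called lower, against 1.68%.

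Mgp had 10.0 CPM with norepinephrine and 5.21 with vehicle in shFAK, and 20.7 with norepinephrine and 11.8 with vehicle in shNC. The log2 ratios were 0.93 (interval 0.54 to 1.35) in shFAK and 0.81 (interval 0.56 to 1.07) in shNC, or 1.91-fold and 1.75-fold. In each line the norepinephrine library was the higher, and the shFAK norepinephrine library lay below shNC vehicle. With the trend taken off, the ratios were 0.95 and 0.68. P4ha3, a collagen prolyl hydroxylase subunit (0.46 and 0.49), and Ecm1, extracellular matrix protein 1 (0.31 and 0.43), were above 0 in both lines and short of the threshold.

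The genes called lower with norepinephrine in shNC were 2 laminin chains and 2 collagen chains. Lamc1 had 184 CPM with norepinephrine and 228 with vehicle in shFAK, and 103 with norepinephrine and 158 with vehicle in shNC (-0.31, interval -0.38 to -0.23, and -0.62, interval -0.71 to -0.53). Col12a1 had 110 CPM with norepinephrine and 132 with vehicle in shFAK, and 40.8 with norepinephrine and 64.4 with vehicle in shNC (-0.27 and -0.66, interval -0.80 to -0.52). Each had a lower value with norepinephrine than with vehicle in both lines, with shNC norepinephrine the lowest of the 4 libraries. Col4a5 was at -0.54 (interval -0.74 to -0.34) in shFAK and -0.77 (interval -1.02 to -0.53) in shNC, and Lama3 at -0.19 and -0.64 (interval -0.91 to -0.38). Fn1 was at -0.07 (interval -0.09 to -0.05) in shFAK and -0.44 (interval -0.46 to -0.41) in shNC, short of 1.5-fold.

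Norepinephrine ratios ran lower in longer genes, and over all genes the Spearman correlation with length was -0.29 in shFAK and -0.49 in shNC, against -0.45 and -0.46 over the 51. After the length and GC trend was taken off, 1 gene, Col4a5 (-0.68), was still called lower in shNC, against 1.46% of all genes. The genes called higher were then 3 in shFAK (Mgp, Loxl1 and Col18a1), against 1.07%, and 1 in shNC (Mgp), against 0.874%. Col12a1 was then at -0.36, Lama3 at -0.45 and Lamc1 at -0.50. Across the 40 genes that averaged 5 CPM or more, the ratios of both lines correlated with Pearson's r of 0.76 and Spearman's rho of 0.72. Over the 9862 genes at that level these were 0.59 and 0.65, and both are a description over genes. The additive model of edgeR called 5 of 51 higher with norepinephrine (Mgp, Loxl1, Ecm1, P4ha3 and Spp1), against 5.04% of all genes, and 7 lower (Col4a5, Lamc1, Col12a1, Lama3, Loxl4, Fn1 and Plod2), against 7.29%, at an adjusted p under 0.05. Mgp had a log2 change of 0.86 with an adjusted p of 7.73e-11 by edgeR, and the DESeq2 Wald test, which gave 28 of the 51 an adjusted p, called 0 higher, against 0.392% of the 6125 genes with one, and 2 lower (Lamc1 and Col12a1), against 1.03%. Mgp and Col4a5 had no adjusted p by DESeq2. Loxl1 reached 1 CPM only in the shFAK norepinephrine library, so its higher value there is built into the selection, and its ratio in shNC was -0.12.

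**Figure D5:**
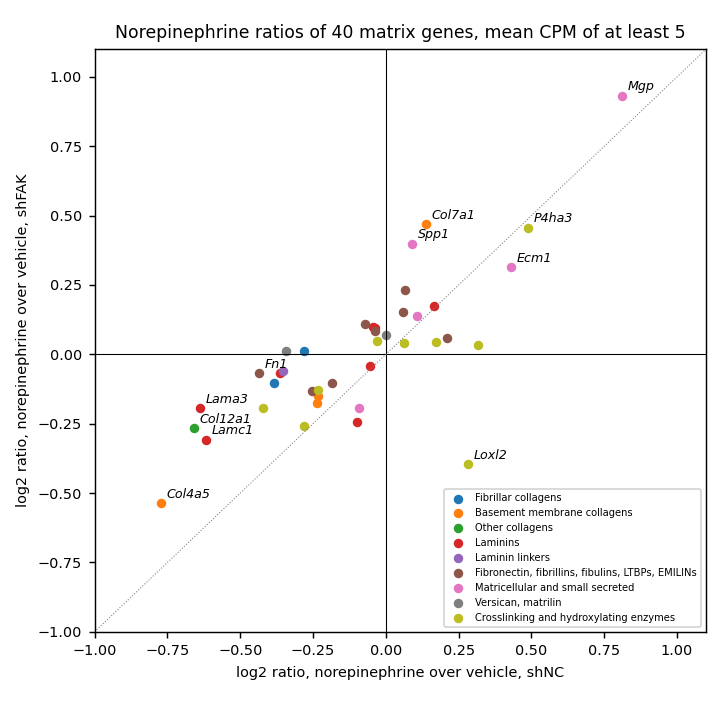
Log2 ratios of norepinephrine over vehicle for the 40 matrix genes that averaged 5 CPM or more, in shFAK (y axis) and shNC (x axis), coloured by role, with a dotted line of equal ratios. Mgp lies alone at the upper right (0.93 in shFAK and 0.81 in shNC), Col4a5 at the lower left (-0.54 in shFAK and -0.77 in shNC), and Loxl2 is below 0 in shFAK (-0.40) and above it in shNC (0.28).

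The responses of the lines to norepinephrine were also set against each other, as shFAK minus shNC, with 99% intervals from the normal approximation. These intervals cover counting error in 4 single libraries, so whether the responses of the lines differ was not tested. The difference was at least 1.5-fold with an interval above 0 for 4 of 51 genes, against 1.19% of all genes, and at least 1.5-fold below 0 with an interval below 0 for 1, against 0.68%. The 4 were rare: Loxl1 (4.10, interval 1.07 to 7.13), Col18a1 (2.18, interval 0.28 to 4.08), Emilin2 (1.59, interval 0.18 to 3.01) and Nid2 (1.37, interval 0.27 to 2.47). Loxl1, a lysyl oxidase of elastic fibres, had 41 counts with norepinephrine and 1 with vehicle in shFAK, and 4 with norepinephrine and 5 with vehicle in shNC. Nid2, nidogen-2, whose exons overlap Rtraf, had 65 counts with norepinephrine and 47 with vehicle in shFAK, and 27 with norepinephrine and 53 with vehicle in shNC. All 4 were highest in the shFAK norepinephrine library, which stands apart, and none of the 4 has a mean CPM of at least 5. Loxl1 and Col18a1 entered the set through that library alone. Among the 40 genes that averaged 5 CPM or more, 0 had such a positive difference, against 0.527% of genes at that level, and 1 a negative one, against 0.477%.

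Loxl2, a lysyl oxidase of collagen IV and fibrillar collagen, was the exception. It had 120 CPM with norepinephrine and 158 with vehicle in shFAK, and 99.7 with norepinephrine and 82.0 with vehicle in shNC. Its ratio was -0.40 (interval -0.49 to -0.31) in shFAK and 0.28 (interval 0.18 to 0.39) in shNC, a difference of -0.68 (interval -0.82 to -0.54). The shFAK vehicle library was the highest of the 4, and it carried the call against shNC under vehicle (0.95, interval 0.85 to 1.04), with 0.27 under norepinephrine. Gm16867, Gm21451 and Gm27177 share near-identical sequence with Loxl2, so these counts are uncertain.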

How the data were processed

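RNA-seq was analysed from 4 libraries, 1 per group, of 23410486 to 29948640 counts. Per the labels' protocols, Trizol RNA went into NEBNext Ultra libraries, a kit that does not mark strand. The authors deposited raw read counts per gene, and the submitters' processing notes name the mm10 build, featureCounts 1.5.0-p3 and HISAT2 2.0.5. The release of the annotation, the strand setting and handling of multi-mapping reads are not given in the sources used here. Of the 51 members, 48 have the coordinates of GENCODE M21.

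From the deposited counts, genes with at least 1 CPM in a library were kept (12351), and TMM sizes were computed with edgeR 4.0.16 in R 4.3.3. Pairwise log2 ratios used a prior count of 2 and exact 99% Clopper-Pearson intervals (scipy 1.17.1); intervals of a difference of ratios used the normal approximation. Intervals cover counting error only, since each group has 1 library and the spread between cultures was not measured. Reads copied by PCR are not independent, which the intervals do not take into account. The additive model was tested by quasi-likelihood in edgeR, with p adjusted by Benjamini-Hochberg over all kept genes. Length and GC trends were splines with 4 degrees of freedom. Near-identical copies were other annotated genes with at least 95% identity over at least 100 bases (minimap2 2.31). With such copies or exon overlaps, the counts of 20 members are uncertain: Col4a1, Col4a2, Col5a1, Col7a1, Ecm1, Efemp2, Fbn1, Fn1, Lama3, Lamc3, Loxl2, Loxl3, Ltbp3, Matn2, Nid2, P4ha2, Plod2, Plod3, Spp1 and Thbs3. The computations were tested on simulated data. Members, lists and tests were chosen with earlier results of these data known. Described in full were members called in both pairs, the 2 with the highest mean TPM in each role, up to 4 with the largest called difference of responses, Ptk2, and up to 3 genes per companion list; others are given by range or as examples, and 1 member, kept in the counts and fits, is not reported here. As alternatives, scaling by library size, DESeq2 1.42.0 (size factors and Wald test), other filters, prior counts of 0.5 and 10, a 2-fold threshold and a 1.2-fold test were run.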

Additional observations from a re-analysis of the deposited data

Results flagged for a closer look

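For 5 matrix genes the norepinephrine ratio had opposite signs in shFAK and shNC, and the difference, shFAK minus shNC, was at least 1.5-fold with a counting interval that left out 0. Only for Loxl2 did the interval of the ratio leave out 0 in each line. The intervals of Emilin2 and Nid2 took in 0 in both lines, and those of Loxl1 and Col18a1 took in 0 in shNC. Whatever the signs, such a difference was found above 0 for 1.19% of all genes and below 0 for 0.68%. With 1 library per group, the difference between the lines was not tested. The difference was 4.10 for Loxl1, 2.18 for Col18a1, 1.59 for Emilin2 and 1.37 for Nid2 on the log2 scale. Loxl1 rests on 41 counts with norepinephrine and 1 with vehicle in shFAK, and 4 with norepinephrine and 5 with vehicle in shNC. Col18a1 rests on 29 counts with norepinephrine and 11 with vehicle in shFAK, and 8 with norepinephrine and 17 with vehicle in shNC. Emilin2 rests on 45 with norepinephrine and 30 with vehicle in shFAK, and 14 with norepinephrine and 31 with vehicle in shNC. The difference for Loxl2 was -0.68, on 2881 counts with norepinephrine and 4191 with vehicle in shFAK, and 2653 with norepinephrine and 2424 with vehicle in shNC. Loxl1 and Col18a1 reached 1 CPM only in the shFAK norepinephrine library, so the selection builds in their high value there. No replicate check exists for any of the 5, and the part of the shFAK norepinephrine library in them was not tested.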

How the results depend on the processing

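None of the called pairwise ratios of the 51 members changed sign under the scaling, filter, prior count, threshold and trend alternatives. Ratios short of a call did: of 204, 19 changed sign once the trend on length and GC was removed, 21 without the length trend, 6 with no filter and 4 by library size, the largest reported at 0.21 (Col7a1 under norepinephrine, then -0.05 without the length and GC trend). The norepinephrine median in shFAK, 0.04, was then -0.01. Among the counts of called members, 140 values stayed within 1.5 times of those reported and 28 did not. For the pairwise calls, no share over all genes is given at the 2-fold threshold or for library size alone. The same holds for the length trend alone, no filter and other prior counts. The counts at those settings show only how the number of called members moved, not whether it exceeds the share of all genes. With a 2-fold threshold, 9 members were higher in shFAK under norepinephrine, 2 higher and 1 lower under vehicle, and 2 higher in both pairs (Fbln2 and Col12a1). At that threshold norepinephrine gave 0 higher and 0 lower in shNC, 0 in both lines and 0 negative differences. Library size alone left 1 lower under vehicle. With the length trend taken off, 8 were higher and 1 lower under vehicle, 1 lower with norepinephrine in shNC, 5 lower for the hairpin and 8 higher for norepinephrine in the additive model. With GC added, these were 1 lower under vehicle, 1 lower in shNC and 5 lower for the hairpin. A filter at 5 CPM, in a library or on average, left 1 higher with norepinephrine in shFAK and 0 positive differences, no filter gave 7 higher, and a prior count of 10 left 1 positive difference. In the additive model, DESeq2 called 17 higher in shFAK, 0 higher and 2 lower with norepinephrine (12 members at an unadjusted p under 0.05, and 20 by edgeR), and a 1.2-fold test gave 2 higher and 1 lower. Counts in both pairs under the alternatives were chosen after seeing the data. No paired analysis was possible because each group has 1 library and the labels carry no replicate numbers. Leaving out a library was not possible, since it leaves no residual degrees of freedom. Genes under about 100 counts, such as Loxl1, are limited by depth.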
